A study of Mus musculus with 4 samples.

Results

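The genes described here are 10 genes of natural killer (NK) cells and of the cytotoxic granule: the receptor genes Ncr1, Klrb1c, Klrd1 and Klrk1, the cytokine receptor gene Il2rb, the transcription factor gene Eomes, and the granule genes Nkg7, Prf1, Gzmb and Gzma. They were chosen by symbol alone from the 56748 genes of the count table, and each symbol matched 1 gene. Of the 10, 9 were among the 15167 genes with enough counts to be tested, and Klrb1c was not. RNA was sequenced in bulk from lungs carrying metastases of 4T1, a mouse triple-negative breast cancer line, in 2 saline libraries and 2 libraries after cmLumiOpto/PARPi.

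All mice were female BALB/cJ that received 4T1-FLuc cells, which carry firefly luciferase, through the tail vein at 7 weeks of age, and treatment began once metastases were seen. The controls were given saline, which another field of the labels calls PBS. The treated mice received cmLumiOpto, a gene for a luciferase joined to a light-gated channel of the mitochondrial membrane under a cfos promoter, packed in exosome-associated AAV that carries an antibody to CD276. They also received the luciferase substrate ViviRen at 2 mg/kg and olaparib, which inhibits PARP, at 50 mg/kg. The vector was injected more than once and olaparib was given in the drinking water, and metastases were followed to week 3. Neither the antibody-bearing vector nor olaparib was sequenced on its own, so their parts cannot be told apart.

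NK cells kill target cells without prior priming, by releasing perforin, which opens the target's membrane, and granzymes, proteases that enter and trigger apoptosis. A balance of activating and inhibitory receptors decides whether the granules are released, and interleukin-15, acting through the receptor chain encoded by Il2rb, keeps NK cells alive. In the lung, NK cells are known for clearing blood-borne tumour cells. Cytotoxic CD8 T cells use the same granule proteins, so only some of the 10 genes separate the 2 cell types.

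Totals lay between 15263375 and 16755228 counts per library, and 3 counts, the level taken as detected, corresponded to 0.173 to 0.204 CPM, the counts of a gene per library total after TMM scaling. This floor and the intervals below cover counting error only. Replicates of each group differed by more than counting noise, with a chi-square per degree of freedom of 25.2 in the saline pair and 45.4 in the treated pair. The labels call the material tumour cells, while all 8 lung markers and all 3 pan-leukocyte markers were detected in every library, with lung markers summing to 611 to 13099 CPM and 4T1 tumour markers to 2820 to 4056 CPM. In bulk RNA, fewer cells of a type and less RNA per cell cannot be told apart.

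As a sum, the 10 genes were highest in cmLumiOpto/PARPi replicate 1 and lowest in cmLumiOpto/PARPi replicate 2. They summed to 972 and 618 counts in the saline libraries and to 2113 and 509 counts in the treated libraries, or 61.0, 42.1, 122 and 30.6 CPM. The summed saline levels thus lay between the 2 treated levels. Il2rb was the largest part of the sum in each library, at 28.4 and 16.1 CPM in saline and 40.1 and 11.9 CPM after treatment. Prf1 added 11.9 and 12.3 CPM in saline and 12.8 and 2.53 CPM after treatment, so the order of the sum leaned on these genes. The median log2 CPM over the 10 genes was 1.45 and 1.17 in saline and 3.36 and 1.32 after treatment. By this measure saline replicate 2 was the lowest library. Replicate 1 of the treated group was the highest of the 4 libraries for each of the 9 tested genes and for Klrb1c, where 32.0% of all tested genes had that library on top. Replicate 2 of the treated group lay below both saline libraries for 4 of the 10 genes, Klrd1, Klrk1, Prf1 and Il2rb, against 37.5% of all tested genes.

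In the quasi-likelihood test of edgeR, 0 members passed an adjusted p-value of 0.05 (Benjamini-Hochberg, over all tested genes), where 0% of all genes were called. At an unadjusted p under 0.05 there was 1 member, Gzma, which was higher after treatment, against 9.21% of all genes higher and 12.0% lower. DESeq2 also called 1 member, Gzma, where it called 2.38% of the 13402 genes with an adjusted p higher and 4.94% lower. The adjusted p-values of the 9 members in edgeR ranged from 0.166 to 0.853. With 2 libraries against 2, an exact two-sided permutation test cannot give a p below 0.333. The labels do not say how the libraries were drawn from mice, so p-values measure the spread between these libraries.

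The log2 fold change of cmLumiOpto/PARPi against saline was above 0 in 8 tested members and below 0 in 1, Prf1, where 52.0% of all tested genes were above 0. The median over the 9 was 1.20, and the median over all tested genes was 0.022. The groups did not overlap in 2 of the 10 genes, Gzma and Eomes, both higher after treatment, where 27.4% of all tested genes were higher without overlap and 27.8% lower. For 8 of the 10 genes the log2 CPM gap between the 2 treated libraries exceeded the gap between the group means, against 43.0% of all tested genes. The treated replicate 1 to replicate 2 ratio had a median of 2.18 on the log2 scale over the 10 genes, and the saline replicate 1 to replicate 2 ratio a median of 0.69. Over all tested genes the median size of these log2 ratios was 0.250 and 0.245.

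**Figure D1:**
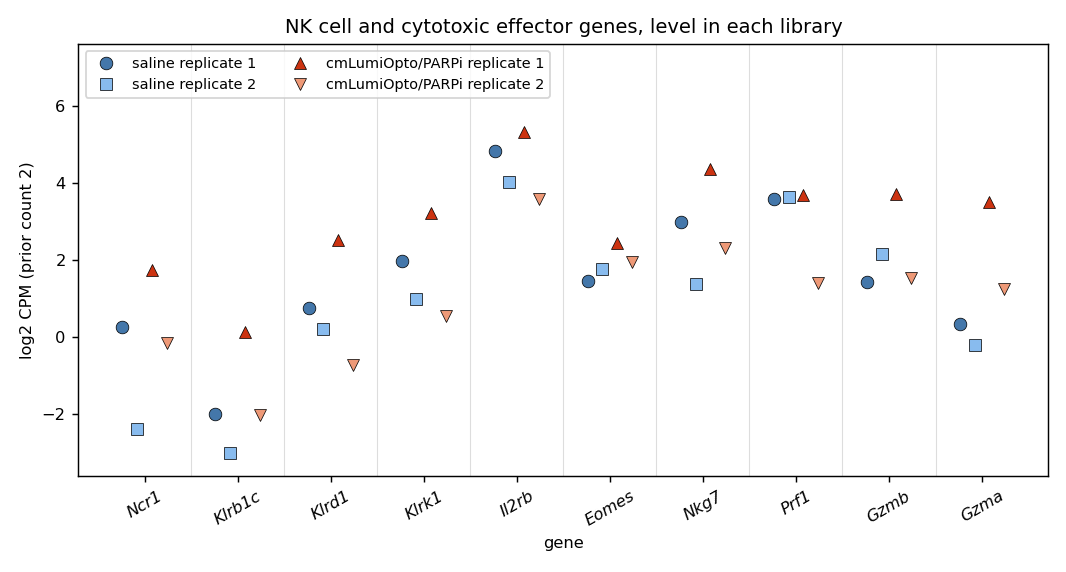
Level of each of the 10 genes in each library, as log2 CPM with a prior count of 2 on the vertical axis, 1 point per library and 1 column per gene. Replicate 1 of the cmLumiOpto/PARPi group, the dark triangle, is the highest point in all 10 columns, while replicate 2 of that group lies below both saline points in 4.

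Among the activating receptors, Ncr1 encodes NKp46, a receptor largely restricted to NK cells. It had 17 and 1 counts in the saline libraries, or 1.07 and 0.0681 CPM, and 56 and 13 counts in the treated libraries, or 3.22 and 0.782 CPM. The groups overlapped, since the lower treated library lay between the saline libraries. The mean was 0.567 ± 0.706 CPM (SD, n = 2) in saline and 2.00 ± 1.73 CPM after treatment. Its log2 fold change was 1.79 ± 1.13 (SE; edgeR adjusted p = 0.400), and it leaned on the single count of saline replicate 2, whose exact Poisson 95% interval ran from 0.0253 to 5.57 counts. Without saline replicate 1 the value became 4.71.

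Klrk1 encodes NKG2D, an activating receptor for stress-induced ligands that CD8 T cells also carry. Its levels were 3.83 and 1.84 CPM in saline, from 61 and 27 counts, and 9.21 and 1.32 CPM after treatment, from 160 and 22 counts. The treated libraries enclosed the saline ones, 1 above both and 1 below both. The log2 fold change was 0.89 ± 0.89 (SE; edgeR adjusted p = 0.595), turning to -1.10 without the higher treated library.

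Klrd1 encodes CD94, the partner chain with which NKG2 receptors read the MHC molecule Qa-1. It was measured at 1.57 and 1.02 CPM in saline, from 25 and 15 counts, and at 5.64 and 0.481 CPM after treatment, from 98 and 8 counts. Its treated libraries were 11.7-fold apart, wider than those of any other member. A log2 fold change of 1.24 ± 1.04 (SE; edgeR adjusted p = 0.523) became -1.42 without the higher treated library.

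Klrb1c encodes the NK1.1 receptor, the usual NK cell marker of C57BL/6 mice. It had 2 and 0 counts in saline and 17 and 2 counts after treatment, and it did not reach the number of counts needed for a test. The 0 of saline replicate 2 allows up to 3 counts, or 0.204 CPM, and saline replicate 1 and treated replicate 2 were under that number of counts too. Treated replicate 1, at 0.979 CPM, was thus the one library in which Klrb1c was detected. Klrb1c, Klrd1 and Klrk1 lie on chromosome 6 in the NK gene complex, where mouse strains differ in sequence and gene number, and the reads of BALB/cJ mice were placed on a C57BL/6 reference. Whether that lowered the counts was not tested. Gm44511, a protein-coding gene on the same strand, overlaps Klrb1c and had 1 count over the 4 libraries. How reads of this overlap were assigned is not given in the sources used here.

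Il2rb encodes the beta chain of the receptors for interleukin-2 and interleukin-15, which NK and T cells share. It was the member with the most counts, at 453 and 237 in saline and 696 and 197 after treatment. These were 28.4, 16.1, 40.1 and 11.9 CPM. The treated libraries again lay on both sides of the saline ones. The mean was 22.3 ± 8.67 CPM (SD, n = 2) in saline and 25.96 ± 19.95 CPM after treatment, with a log2 fold change of 0.22 ± 0.58 (SE; edgeR adjusted p = 0.853). Its sign turned when saline replicate 2 was left out, to -0.15, and when treated replicate 1 was left out, to -0.91.

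Eomes encodes a T-box transcription factor needed for NK cell maturation, which memory CD8 T cells also use. It showed 2.63 and 3.27 CPM in saline, from 42 and 48 counts, and 5.30 and 3.73 CPM after treatment, from 92 and 62 counts. Both treated libraries were above both saline libraries, the lower by 1.14-fold over the higher saline library. Its treated libraries were 1.42-fold apart, the smallest spread of the 10 genes. The log2 fold change was 0.61 ± 0.39 (SE; edgeR adjusted p = 0.400) and lay between 0.34 and 0.82 when any 1 library was left out. A long noncoding gene on the opposite strand, Gm33460, overlaps Eomes and had 27 counts over the 4 libraries. Whether reads were counted by strand is not given in the sources used here, so reads of the overlap cannot be assigned to one or the other.

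Gzma encodes granzyme A, a trypsin-like protease that resting NK cells already store. It had 18 and 11 counts in saline, or 1.13 and 0.750 CPM, and 193 and 37 counts after treatment, or 11.1 and 2.23 CPM. The groups did not overlap: the lower treated library was 1.97-fold and the higher 9.84-fold above the higher saline library. Means were 0.939 ± 0.268 CPM (SD, n = 2) in saline and 6.67 ± 6.28 CPM after treatment. The log2 fold change of 2.81 ± 0.83 (SE) was the largest among the 9 tested members and had an unadjusted p of 0.0155 and an adjusted p of 0.166 in edgeR. DESeq2 gave it an adjusted p of 0.0167. When 1 library was left out the value lay between 1.23 and 3.53, the lowest without treated replicate 1 and the highest without treated replicate 2.

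Gzmb encodes granzyme B, the protease that cleaves caspases in the target cell and is made in quantity by activated NK and CD8 T cells. It had 41 and 63 counts in saline and 226 and 46 counts after treatment, or 2.57, 4.29, 13.01 and 2.77 CPM. Treated replicate 2 fell inside the range of the saline libraries, and treated replicate 1 was 3.03-fold above the higher one. For Gzmb the log2 fold change was 1.20 ± 0.74 (SE; edgeR adjusted p = 0.387), and -0.31 without treated replicate 1.

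Prf1 encodes perforin, the pore-forming protein without which granzymes do not reach the target's cytosol. Its levels were 11.9 and 12.3 CPM in saline, from 189 and 180 counts, and 12.8 and 2.53 CPM after treatment, from 222 and 42 counts. The saline libraries and treated replicate 1 nearly coincided, and treated replicate 2 stood alone at 0.206 of the higher saline level. Prf1 was the one tested member with a log2 fold change below 0, at -0.65 ± 0.68 (SE; edgeR adjusted p = 0.612). Without treated replicate 2 it was 0.062, and without treated replicate 1 it was -2.25.

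Nkg7 encodes a membrane protein of cytotoxic granules that takes part in their release. It had 124 and 36 counts in saline and 353 and 80 counts after treatment, or 7.78, 2.45, 20.3 and 4.81 CPM. Each group had a high and a low library, 3.17-fold apart in saline and 4.22-fold apart after treatment, and the groups overlapped. For Nkg7 the log2 fold change was 1.29 ± 0.80 (SE; edgeR adjusted p = 0.391), and -0.094 without treated replicate 1.

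**Figure D2:**
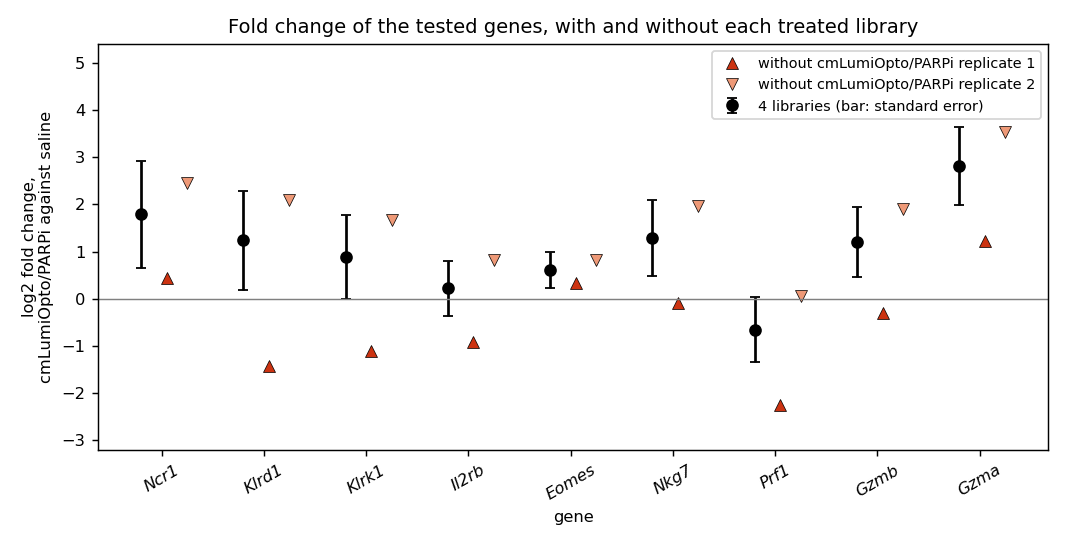
Log2 fold change of cmLumiOpto/PARPi against saline for the 9 tested genes, from edgeR: black points use the 4 libraries with bars of 1 standard error, dark triangles leave out treated replicate 1 and pale triangles leave out treated replicate 2. Without replicate 1 the values of Klrd1, Klrk1, Il2rb, Nkg7, Prf1 and Gzmb lie below 0, while Gzma, Eomes and Ncr1 stay above 0 in all 3 fits.

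Leaving out each treated library gave opposite pictures of the 10 genes. Without treated replicate 2, all 10 genes passed the filter, were above 0, and had the remaining treated library above both saline libraries. Without treated replicate 1, 3 of the 9 tested members were above 0, namely Gzma, Eomes and Ncr1, and 6 were below 0. The median log2 fold change was then -0.31, against 1.93 without treated replicate 2 and 1.20 with the 4 libraries. In the remaining libraries Gzma and Eomes were higher without overlap, while Il2rb, Prf1, Klrk1 and Klrd1 were lower without overlap. With 1 library against 2, a lone library lies outside the other pair more readily than with 2 against 2. No share over all tested genes is at hand for either fit, so these counts are a description.

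Levels of different genes were compared per length, in TPM, a scale that divides counts by gene length and library total, computed here from the counts and the gene lengths of the table. By the mean over the 4 libraries the order was Nkg7 at 27.4 ± 23.6 TPM (SD over the 4 libraries), Il2rb at 16.2 ± 8.19, Gzmb at 11.2 ± 9.28, Prf1 at 11.2 ± 5.66, Gzma at 10.5 ± 13.3, Klrd1 at 4.81 ± 4.96, Eomes at 2.57 ± 0.660, Ncr1 at 2.34 ± 2.41, Klrk1 at 1.61 ± 1.36 and Klrb1c at 0.287 ± 0.417 TPM. Granule genes filled 4 of the 5 highest places in this mean over both groups, although in saline Gzma, at a mean of 2.84 TPM, was below Klrd1, at 3.08 TPM, and the 4 NK receptor genes had means at or under 4.81 TPM. Il2rb was above Gzmb, and Klrk1 above Klrb1c, in 4 of 4 libraries. No gap between neighbours exceeded the SD of the higher gene, every other pair of neighbours changed order in at least 1 library, and Gzmb, Prf1 and Gzma were each above the next in 2 of 4 libraries.

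The granule genes did not keep one ratio to each other across libraries. In TPM, Prf1 was above Gzmb and Gzma in both saline libraries, at 13.97 and 14.4 TPM against 5.45 and 9.09 for Gzmb and 3.42 and 2.27 for Gzma, and below both after treatment, at 13.6 and 2.68 TPM against 24.8 and 5.28 for Gzmb and 30.3 and 6.07 for Gzma. Relative to 1000 CPM of the leukocyte genes Ptprc, Laptm5 and Cd53, Gzma stood at 2.32 and 2.22 in saline and at 21.7 and 5.62 after treatment, so its groups did not overlap on this scale either. The 10 genes together stood at 126 and 125 per 1000 leukocyte CPM in saline and at 238 and 77.3 after treatment, with saline again between the treated libraries.

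The table places Ncr1 at chr7:4340723-4348163, Nkg7 at chr7:43086497-43087673, Klrb1c at chr6:128755448-128766178, Klrd1 at chr6:129568745-129575738, Klrk1 at chr6:129587286-129600827 and Eomes at chr9:118307280-118315200. Prf1 lies at chr10:61133612-61140459, Gzma at chr13:113230359-113237515, Gzmb at chr14:56496295-56499717 and Il2rb at chr15:78363456-78379471. These are the coordinates of the table, for which the submitters' processing notes name mm39, and all 10 are protein-coding genes. On the GRCm38 annotation the 10 genes were found by identifier and 0 had the same position, although the study's methods name that build.

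Promoter sequence was looked at to describe sequence features that the genes share, with no test. RefSeq windows of GRCm38.p6, from 250 bases before to 50 after the start of transcription, were at hand for 8 of the 10 genes, all but Klrd1 and Il2rb. Both strands were searched for the letters AGGTGT of T-box factors such as Eomes and T-bet, TGTGGT of RUNX factors, AGGAAG of ETS factors and TTCNNNGAA of STAT factors, counting overlapping matches. The RUNX letters stood in the windows of 7 of the 8 genes, all but Eomes, and in 16.8% of all 32851 windows. The T-box letters stood in those of Gzma, Nkg7 and Prf1, and in 13.7% of all windows. The ETS letters stood in Klrb1c, Nkg7 and Prf1, and in 35.4% of all windows, and the STAT letters in Gzmb and Nkg7, and in 8.3% of all windows. A match describes letters and does not show that a factor was bound.

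The upstream 250 bases are shown for Gzma, the gene with the largest fold change, for Prf1, the one below 0, for Ncr1, the NK-specific receptor, and for Eomes, which holds none of the 4 motifs. Each runs 5′ to 3′ on the strand of the gene, and capitals mark the motifs on either strand.
Gzma (chr13:113100982-113101231, minus strand): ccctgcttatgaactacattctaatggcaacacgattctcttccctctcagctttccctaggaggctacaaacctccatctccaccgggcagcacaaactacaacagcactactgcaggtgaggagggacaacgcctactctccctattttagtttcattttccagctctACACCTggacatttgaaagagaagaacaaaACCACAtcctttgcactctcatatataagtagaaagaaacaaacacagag
Prf1 (chr10:61297586-61297835, plus strand): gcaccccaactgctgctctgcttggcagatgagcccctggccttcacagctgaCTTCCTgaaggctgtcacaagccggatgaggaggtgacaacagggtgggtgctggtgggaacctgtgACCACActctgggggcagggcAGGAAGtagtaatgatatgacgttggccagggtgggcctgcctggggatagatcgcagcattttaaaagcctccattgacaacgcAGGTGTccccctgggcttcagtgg
Ncr1 (chr7:4337465-4337714, plus strand): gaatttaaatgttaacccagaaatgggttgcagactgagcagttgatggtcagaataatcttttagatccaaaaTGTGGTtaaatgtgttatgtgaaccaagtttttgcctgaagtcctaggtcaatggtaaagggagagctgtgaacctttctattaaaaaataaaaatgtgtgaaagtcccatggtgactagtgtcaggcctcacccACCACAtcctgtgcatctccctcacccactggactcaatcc
Eomes (chr9:118477939-118478188, plus strand): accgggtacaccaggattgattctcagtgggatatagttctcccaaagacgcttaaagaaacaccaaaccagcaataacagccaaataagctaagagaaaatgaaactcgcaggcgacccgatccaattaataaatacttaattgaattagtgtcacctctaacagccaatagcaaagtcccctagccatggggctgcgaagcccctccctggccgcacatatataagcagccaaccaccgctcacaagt
In Gzma the T-box match starts 80 bases and the RUNX match 50 bases before the start. In Prf1 the T-box match starts 24 bases and the RUNX match 130 bases before it, and both ETS matches of the stretch shown lie upstream of the T-box match. Ncr1 has RUNX matches that start 176 and 41 bases before the start, and no T-box match. Gzma and Prf1 thus shared the T-box and RUNX letters, as did Nkg7, and Eomes held neither. Whether these letters bear on the levels of the genes was not tested.

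The other granzyme genes fell into different orders of libraries. Gzmk, of the tryptase branch like Gzma, was highest in treated replicate 1 as Gzma and Gzmb were, with 14 and 2 counts in saline and 26 and 6 after treatment, while Gzmm had 15 and 9 against 13 and 13. The 5 genes Gzmc to Gzmg, which encode further granzymes and lie with Gzmb on chromosome 14, were picked out after their values had been seen. They summed to 109 and 370 counts in saline and to 49 and 289 counts after treatment, or 6.84, 25.2, 2.82 and 17.4 CPM. Their lowest library was treated replicate 1, the highest library for Gzma and Gzmb. Each of the 5 had more counts in saline replicate 2 and treated replicate 2 than in the other library of its group. Their log2 fold changes ran from -1.999 for Gzmf to 0.0091 for Gzmc, and none passed. These genes are close copies of each other, so the share of reads given to each is uncertain.

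**Figure D3:**
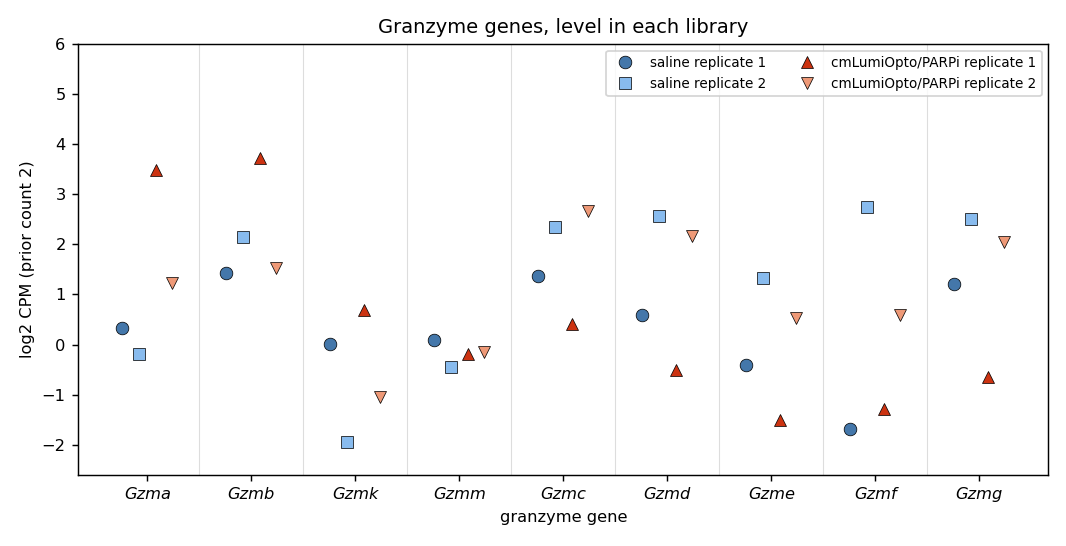
Log2 CPM with a prior count of 2 for the 9 granzyme genes with counts, 1 point per library. In Gzma, Gzmb and Gzmk treated replicate 1, the dark triangle, is the highest point, and in Gzmc to Gzmg it is at or near the bottom, with saline replicate 2 and treated replicate 2 on top.

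Related genes were read as lists, with 0 genes of any list called by edgeR. Their counts without overlap stand against 27.4% higher and 27.8% lower over all tested genes. Counts of list genes highest in treated replicate 1 stand against 32.0% of all tested genes. Of 32 other NK receptor genes, 15 were tested, with a median log2 fold change of 0.59, and 9 of the 15 were highest in treated replicate 1. Of the Ly49 receptor genes, Klra1, Klra4, Klra6, Klra8 and Klra10 had 0 counts in the 4 libraries, as had Klrb1 outside that family, while Klra2 had 190 and 156 counts in saline and 358 and 143 after treatment. These genes too lie on chromosome 6. Whether placing BALB/cJ reads on a C57BL/6 reference lowered their counts was not tested. Klra3, another Ly49 gene, had 13 and 6 counts in saline and 42 and 15 after treatment, without overlap (log2 fold change 1.42 ± 0.71 SE, edgeR adjusted p = 0.307). Klri1, which encodes a lectin-like NK receptor, had 23 counts in treated replicate 1 and 0 in the other 3 libraries, and Klre1, which encodes its partner chain, had 33 counts there and 2, 0 and 2 in saline replicates 1 and 2 and treated replicate 2. Both were too low to be tested. Itga2, which encodes the DX5 integrin and is also an epithelial gene, was the 1 receptor at an unadjusted p under 0.05, at -0.63 ± 0.20 (SE; edgeR adjusted p = 0.177), and was lower without overlap, as was Fcgr4, an Fc receptor gene also used by myeloid cells, at -0.73 ± 0.41 (SE; edgeR adjusted p = 0.345).

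Of 14 adaptor and signalling genes 12 were tested, 5 were higher without overlap (27.4% of all tested genes were) and 1 lower (27.8%), and the median log2 fold change was 0.67. The 1 lower was Plcg2, a phospholipase gene of receptor signalling, at -0.41 ± 0.15 (SE; edgeR adjusted p = 0.204), and Sh2d1b1, the gene of the SLAM receptor adaptor EAT-2, was higher, at 0.82 ± 0.34 (SE; edgeR adjusted p = 0.246). Tyrobp, which encodes DAP12, the adaptor of activating NK and myeloid receptors, had 1169 and 899 counts in saline and 1824 and 1585 after treatment (log2 fold change 0.57 ± 0.15 SE, edgeR adjusted p = 0.145). Hcst, which encodes DAP10, the adaptor of NKG2D, had 51 and 37 counts in saline and 110 and 66 after treatment (0.85 ± 0.40 SE, adjusted p = 0.289 in edgeR). Unlike Klrk1, the receptor it serves, Hcst had both treated libraries above both saline libraries.

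Of 15 other granule genes 14 were tested, with 2 higher without overlap (27.4% of all tested genes were), 0 lower and a median of 0.027. The 2 were Serpinb6b (0.85 ± 0.34 SE) and Serpinb9 (0.73 ± 0.34 SE), members of the serpin family, the second of which inhibits granzyme B, with edgeR adjusted p-values of 0.229 and 0.277. Ctsw, a cathepsin gene of NK and CD8 T cells, had 47 and 16 counts in saline and 146 and 42 after treatment, the order of libraries seen in Nkg7. Of 10 genes of the release machinery 9 were tested, with a median of 0.090, 3 higher and 2 lower without overlap. Vamp8, a SNARE gene of granule fusion that many cell types use, was called by DESeq2 (adjusted p = 0.00508) and not by edgeR (0.70 ± 0.14 SE, adjusted p = 0.138). Coro1a and Was, genes of the actin cytoskeleton of leukocytes, stood at 0.73 ± 0.31 (SE) and 0.47 ± 0.21 (SE), and Lyst, a gene of lysosome traffic, at -0.23 ± 0.16 (SE), with edgeR adjusted p-values from 0.245 to 0.438.

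Effector genes were in part highest where the 10 genes were. Of 9 secreted and surface effector genes 7 were tested, 5 of them highest in that library, with a median of 0.81. Ifng, the interferon gamma gene, had 5 and 9 counts in saline and 37 and 3 after treatment, and Xcl1, a chemokine gene of activated NK cells, had 8 and 1 against 40 and 10, both too low for the test. Ccl5, a chemokine gene of NK and T cells, had 330 and 44 counts in saline and 647 and 194 after treatment (1.04 ± 0.91 SE, edgeR adjusted p = 0.536). The 2 tested effector genes without overlap were Ccl3, another chemokine gene, with its highest count of 83 in treated replicate 2 (1.21 ± 0.51 SE, edgeR adjusted p = 0.247), and the tumour necrosis factor gene Tnf (1.19 ± 0.91 SE, edgeR adjusted p = 0.483).

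Of 14 NK transcription factor genes 13 were tested, with a median of -0.045, 0 higher and 4 lower without overlap, near the 27.8% of all tested genes that were lower. The 4 were Ets1 (-0.36 ± 0.13 SE), Zeb2 (-0.42 ± 0.15 SE), Nfil3 (-0.43 ± 0.25 SE) and Runx3 (-0.28 ± 0.21 SE), all transcription factor genes that other cells of the lung also use, with edgeR adjusted p-values from 0.201 to 0.468. Tbx21, which encodes T-bet, a T-box factor like Eomes, had 20 and 5 counts in saline and 62 and 15 after treatment. Of 20 genes of interleukin-2, 15, 12 and 18 signalling 15 were tested, with a median of 0.17 and 2 lower without overlap, the kinase genes Jak3 (-0.49 ± 0.14 SE, edgeR adjusted p = 0.163) and Jak1 (-0.44 ± 0.13 SE, edgeR adjusted p = 0.164). Il15 itself had 74 and 70 counts in saline and 154 and 74 after treatment.

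Of 18 genes for ligands of NK receptors 13 matched and 9 were tested, with a median of 0.17. Clec2d, which encodes the ligand of the inhibitory receptor of the Klrb1 family, had 204 and 187 counts in saline and 1099 and 489 after treatment, or 12.8, 12.7, 63.3 and 29.4 CPM. The treated libraries were 4.95-fold and 2.30-fold above the higher saline library, where those of Gzma were 9.84-fold and 1.97-fold above it. Its log2 fold change was 1.86 ± 0.37 (SE; edgeR adjusted p = 0.138), and DESeq2 called it (adjusted p = 2.19e-04). Cd48, the ligand gene for the receptor 2B4, was at 1.10 ± 0.38 (SE; edgeR adjusted p = 0.194). Of 13 homing genes 12 were tested, with a median of 0.72, 10 highest in treated replicate 1 and 2 higher without overlap, the chemokine gene Cxcl16 (0.80 ± 0.38 SE) and the monocyte and NK receptor gene Ccr2 (1.25 ± 0.75 SE).

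T cell genes shared their highest library with the 10 genes. As a sum their lowest library was saline replicate 2, and that of the 10 genes was treated replicate 2. By median log2 CPM the 10 genes were lowest in saline replicate 2 as well. The 12 T cell markers summed to 59.1 and 22.1 CPM in saline and to 129 and 37.5 CPM after treatment. Against 32.0% of all tested genes, 11 of the 11 tested markers were highest in treated replicate 1. Their median log2 fold change was 0.85, with 3 of 11 higher without overlap, close to the 27.4% of all tested genes, and without treated replicate 1 it was -0.15. The 3 were the T cell receptor genes Trbc1 (2.38 ± 0.90 SE, edgeR adjusted p = 0.217) and Trbc2 (1.36 ± 0.68 SE, 0.308) and the CD3 gene Cd3d (1.83 ± 0.76 SE, 0.241). The log2 fold changes of Cd3g and Cd3e, the other CD3 genes, were 1.50 and 0.42, and those of the co-receptor genes Cd8a, Cd8b1 and Cd4 were 0.51, 1.16 and 0.85. Trac, for the T cell receptor alpha chain, was at 0.58, Cd5 and Cd28, surface receptors of T cells, at 0.83 and 0.68, and Trdc, the delta chain gene, had too few counts, at 8 and 7 against 14 and 5.

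Set against the CD3 genes the 10 genes looked different. In saline the 10 genes summed to 4.23 and 9.22 times the CPM of Cd3d, Cd3e and Cd3g. After treatment they summed to 3.36 and 2.93 times, so both treated libraries were below both saline libraries. Il2rb was the largest part of this sum in each library, at 1.97 and 3.54 in saline and 1.11 and 1.13 after treatment. No share over all tested genes is at hand on this scale, so orders of libraries on it are a description. Nkg7 per CD3 CPM was steady, at 0.539 and 0.537 in saline and 0.561 and 0.460 after treatment. Prf1 per CD3 CPM was 0.822 and 2.69 in saline and 0.353 and 0.241 after treatment. Gzma per CD3 CPM was 0.0783 and 0.164 in saline and 0.307 and 0.213 after treatment, higher in both treated libraries. Ncr1, at low counts, was narrowly higher in both treated libraries, at 0.0739 and 0.0149 in saline and 0.0890 and 0.0747 after treatment. Klrb1c was under 3 counts in every library but treated replicate 1, so its order on this scale is not read. Prf1, Klrk1 and Il2rb had both treated libraries below both saline libraries, and Klrd1, Gzmb, Nkg7 and Eomes overlapped. The part of T cells in the levels of the shared granule genes was not tested.

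Other cell types differed between the libraries in other ways. The 5 B cell markers were highest in treated replicate 1 as well, and summed to 11.1 and 4.57 CPM in saline and 18.5 and 11.3 CPM after treatment (median log2 fold change 1.49). The B cell genes Cd79b and Ms4a1 were higher without overlap, at 1.49 ± 0.47 and 2.90 ± 1.09 (SE), with 0 counts of Ms4a1 in saline replicate 2. The 8 lung markers summed to 2778 and 611 CPM in saline and to 13099 and 5713 CPM after treatment, 8 of 8 highest in treated replicate 1 and 6 higher without overlap (median 1.86). By p the first were Hopx and Ager of alveolar type 1 cells, Sftpc of type 2 cells and Foxj1 of ciliated cells, at 1.79 ± 0.44, 1.93 ± 0.57, 2.79 ± 0.91 and 1.80 ± 0.60 (SE). Lung marker RNA was thus highest in the library where the 10 genes were highest. Treated replicate 2, where the sum of the 10 genes was lowest, had the second highest level of lung markers. Neutrophil markers, 1127 and 520 CPM in saline and 733 and 1427 CPM after treatment, were highest in treated replicate 2 as a sum (median 0.40). Of them Mmp8, a granule protease gene, was lower without overlap, at -1.27 ± 0.45 (SE; edgeR adjusted p = 0.201), and was called lower by DESeq2 (adjusted p = 0.0494), while Csf3r, the G-CSF receptor gene, was at 0.51 ± 0.29 (SE) and higher without overlap. Macrophage markers lay between 297 and 459 CPM (median 0.26), with the receptor gene Mertk at -0.59 ± 0.18 and the lysosomal gene Cd68 at 0.39 ± 0.13 (SE), both without overlap, pan-leukocyte genes between 337 and 511 CPM (median 0.30), and mast cell and basophil markers, 2 of 7 tested, between 27.3 and 50.3 CPM (median 0.40). The 8 tumour markers lay between 2820 CPM in treated replicate 1 and 4056 CPM in treated replicate 2 (median -0.11), and 4 of 8 were lower without overlap. The 4 were the proliferation genes Mki67 (-0.65 ± 0.16 SE) and Top2a (-0.34 ± 0.18 SE), Cd276, the gene of the vector's target (-0.38 ± 0.13 SE), and the keratin gene Krt14 (-0.18 ± 0.16 SE), and DESeq2 called Mki67 lower (adjusted p = 0.0205). The part of these differences in the levels of the 10 genes was not tested.

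**Figure D4:**
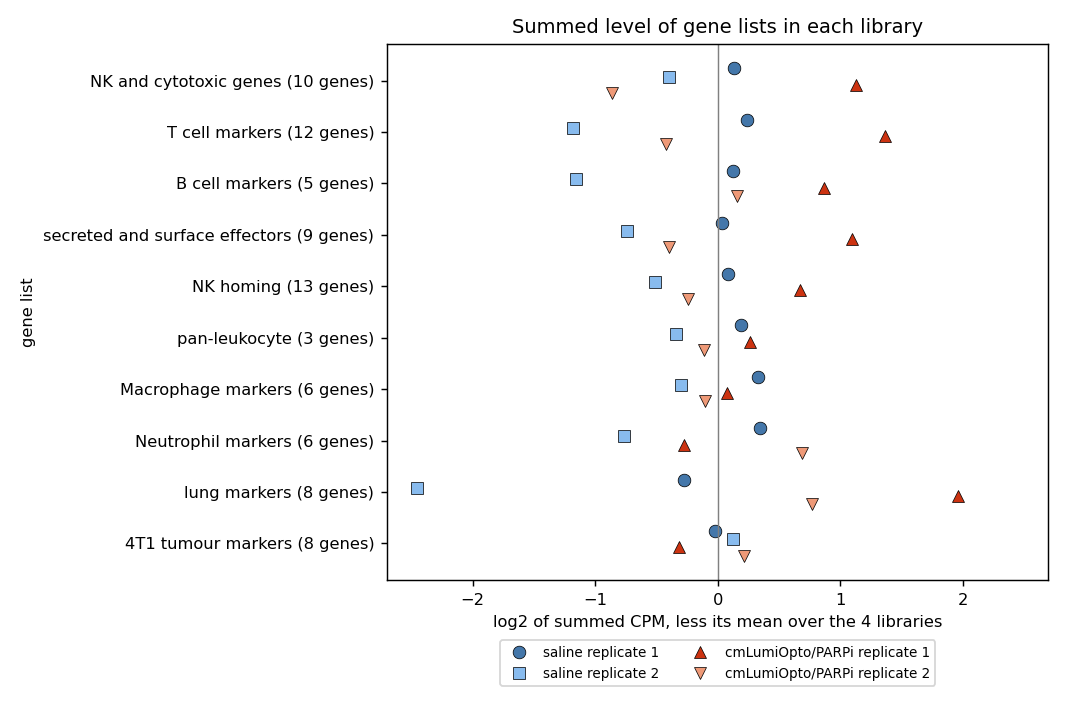
Summed CPM of gene lists in each library, on a log2 scale and less the mean over the 4 libraries on the horizontal axis, 1 row per list. Treated replicate 1 is rightmost for NK and cytotoxic genes, T cell, B cell, pan-leukocyte and lung markers, effectors and NK homing genes. It stands there at 18.5 CPM for the B cell and 129 CPM for the T cell list. Neutrophil and 4T1 tumour markers have it left of centre.

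The mean centred log2 CPM profile of the tested members was -0.024 and -0.70 in saline and 1.41 and -0.68 after treatment. Of the members Klrk1 lay nearest to it, at a Euclidean distance of 0.581, and Prf1 farthest, at 1.86. Over the same 4 libraries the 8 genes outside the group with the nearest profiles were Ubd at a distance of 0.150, Thbd at 0.158, Kbtbd8 at 0.162, Pla2r1 at 0.169, the noncoding Gm19391 at 0.183, Sema3g at 0.195, H2-Aa at 0.199 and Cxcl11 at 0.228. Cxcl11, a chemokine gene, was measured at 26.7 and 13.8 CPM in saline and at 71.9 and 14.98 CPM after treatment. H2-Aa, an MHC class II gene, stood at 212 and 129 CPM in saline and at 484 and 134 CPM after treatment. Ubd, a ubiquitin-like gene, stood at 15.2 and 8.38 CPM in saline and at 36.5 and 9.09 CPM after treatment. With 4 libraries many profiles look alike, so nearness is a description.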

How the data were processed

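Poly-A RNA was sequenced in 2 saline and 2 cmLumiOpto/PARPi libraries of lungs with metastases, at 15263375 to 16755228 counts. The authors mapped reads with HISAT2 and deposited raw read counts per gene, not normalized, with gene positions and lengths. The counting program and strand setting are not given in the sources used here. The study's methods name dissociated lung tissue, another RNA kit than the labels, and GRCm38, while the processing notes name mm39. Groups and replicate numbers came from the sample labels.

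From these counts, edgeR 4.0.16 in R 4.3.3 was run (TMM factors, filterByExpr with a minimum count of 10, quasi-likelihood test, Benjamini-Hochberg adjustment, threshold 0.05). Log2 CPM used a prior count of 2, and a standard error is the log2 fold change divided by the square root of F. Alternatives were DESeq2 1.42.0 (adjusted p missing for 1765 genes), other factors, no filter, no legacy option, the replicate number as a block, a loess trend (span 0.5) on length and expression removed, a prior count of 0.5, and leaving out each library. Named were the 10 genes, every T cell gene, up to 4 genes per other list with the smallest unadjusted p among those without overlap, and the 8 nearest profiles, except 1 gene that is not reported here. Other genes named beside them were chosen after their values were seen. The 10 genes and the lists were chosen with earlier results of these data known.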

Additional observations from a re-analysis of the deposited data

How the results depend on the processing

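Depth limits Klrb1c, at 0 to 17 counts, and 2 libraries per group limit every test. The count of members called, 0, became 1 with DESeq2 (Gzma), 3 without the filter (Gzma, Gzmb and Nkg7) and 2 with the replicate number as a block (Gzma and Nkg7), and was 0 under the other alternatives that give calls. The genes called over the whole table moved from 0 to 981 with DESeq2, 2000 of 25435 without the filter, and 31, 9, 2 and 0 without saline replicate 1, saline replicate 2, treated replicate 1 and treated replicate 2. The lone library left in a group is then assumed to vary like the pair in the other.

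The number of members whose groups did not overlap, 2, was 3 with upper-quartile factors and 3 to 10 with 1 library left out (5, 3, 6 and 10 in the same order). The 6 were 2 higher and 4 lower. A lone library lies outside the other pair more readily, and no share over all genes is at hand with 1 library left out. These counts are thus not comparable with the 2 of the main fit. The median log2 fold change of 1.20 lay between 0.72 and 1.31 under the alternatives with 4 libraries and between -0.31 and 1.93 with 1 left out, and was 0.81 with the loess trend removed. The median difference in log2 CPM, 0.71, was 0.72 with a prior count of 0.5 and lay between -0.063 and 1.97 with 1 library left out. Upper-quartile factors moved the median of all genes from 0.022 to 0.128.

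With 1 library left out, single log2 fold changes changed sign, over ranges of -0.91 to 0.82 for Il2rb, -1.42 to 2.09 for Klrd1, -1.10 to 1.67 for Klrk1, -0.31 to 1.90 for Gzmb, -0.094 to 2.34 for Nkg7 and -2.25 to 0.062 for Prf1. Ncr1 (0.44 to 4.71), Gzma (1.23 to 3.53) and Eomes (0.34 to 0.82) kept theirs. No sign of a tested member changed under the alternatives that kept the 4 libraries. Calls with the loess trend removed, and overlap without the legacy option, with the block or with the trend removed, give no value of their own.

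Same-numbered libraries come from different treatment groups and so from different animals. Whether they share more than the number is not given in the labels. Their deviations from the group means had a Spearman correlation of 0.298 across genes, which are not independent replicates. With the replicate block, 1822 of all genes and 2 members were called, and the members' median was 0.72.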
